A study of Mus musculus with 10 samples.

Results

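The complement components examined in the jejunum of P5 mice were the 9 genes C1qa, C1qb, C1qc, C2, C4b, C3, Cfb, Cfd and Cfi, chosen by symbol from the 24062 genes counted in each library. Each of the 9 was listed in the files, and 8 passed the filter of 5 or more counts in at least 1 library; Cfd did not. There were 5 libraries of WT mice, which were wild-type C57BL/6, and 5 of KSR23 mice, which carried the R23 allele (both subunits of IL-23, p19 and p40, inserted behind a floxed stop in the ROSA26 locus) together with a K14-cre transgene that drives recombination in keratinocytes and other K14-expressing epithelium. Both groups were collected at postnatal day 5. The construct directs IL-23 to K14-expressing cells, and RNA came from homogenised whole jejunum, so fewer cells of a type and less RNA per cell cannot be told apart.

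Complement is a cascade of plasma and tissue proteins that coats targets and recruits inflammatory cells. The classical pathway begins when C1q, a hexamer of trimers built from one chain each of C1QA, C1QB and C1QC, binds antibody or a surface and lets C1r and C1s cleave C4 and C2 into a C3 convertase. The alternative pathway builds its convertase from C3b and factor B, which factor D cleaves, and factor I destroys C3b and C4b with the help of cofactors. The liver makes most plasma complement, C1q comes mainly from macrophages and dendritic cells, factor D from adipocytes, and C3, C4 and factor B are also made by epithelium and are known targets of inflammatory cytokines.

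Library totals ran from 25.5 to 60.9 M counts (M, 1e+06), and each library had 16012 to 17637 genes with at least 1 count. The tissue label was borne out by the enterocyte genes Vil1 (mean 448 CPM in WT and 718 in KSR23) and Fabp2 (9965 and 4366 CPM), where CPM denotes counts scaled to a library total of 1e+06 after TMM normalisation. Il12b, which encodes the p40 subunit, averaged 0.109 CPM in WT and 0.553 in KSR23 (log2 fold change 2.32, SE 0.66, adjusted p = 0.00364 by the likelihood ratio test of edgeR, LRT). Its WT mean was at the level of a few counts, since 3 counts correspond to 0.0864 to 0.113 CPM in WT libraries. The fold change of Il12b is therefore imprecise. For Il23a, which encodes p19, the means were 0.230 and 0.450 CPM (adjusted p = 0.270). Replicates 4 and 5 of each group stood apart from the others in one respect. They were the highest or the lowest of their group at 8.53% and 18.4% of 9737 genes with a mean of 5 CPM or more in WT and at 11.7% and 9.89% in KSR23, against 45.7% to 75.6% for replicates 1 to 3, so they lay between the other libraries at most genes. P-values measure the spread between these libraries. Whether replicates 4 and 5 are independent of replicates 1 to 3 was not tested. If they are not, n = 5, the SE and the p-values of the full set are too favourable, and calls are therefore also counted in replicates 1 to 3 alone.

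Across the 17632 genes tested, the LRT called 18.5% at an adjusted p under 0.05, with 9.73% higher and 8.76% lower in KSR23. The quasi-likelihood (QL) test, which allows for uncertainty in each gene's dispersion, called 15.4%. At 14.4% of the genes, the CPM ranges of WT and KSR23 lay apart. With replicates 1 to 3 alone, these tests called 3.36% and 0.812% of 17243 genes. Against this background, the LRT called 5 of the 8 complement components tested. C4b, C3 and Cfb were higher, C1qb and C1qc were lower, and C1qa, C2 and Cfi were not called. The QL test called 3 of the 8 (C4b, C3 and C1qb), and with replicates 1 to 3 the counts were 1 (C4b) and 0. The ranges lay apart at 4 of the 8 (C1qb, C4b, C3 and Cfi). The median log2 fold change of the 8 was 0.21, beside 0.03 for all genes tested. In simulated counts of 17632 genes with a dispersion of 0.25, the LRT recovered 65% of 100 genes changed 4-fold and 2% of 100 changed 2-fold, so a gene not called may still differ by 2-fold.

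**Figure D1:**
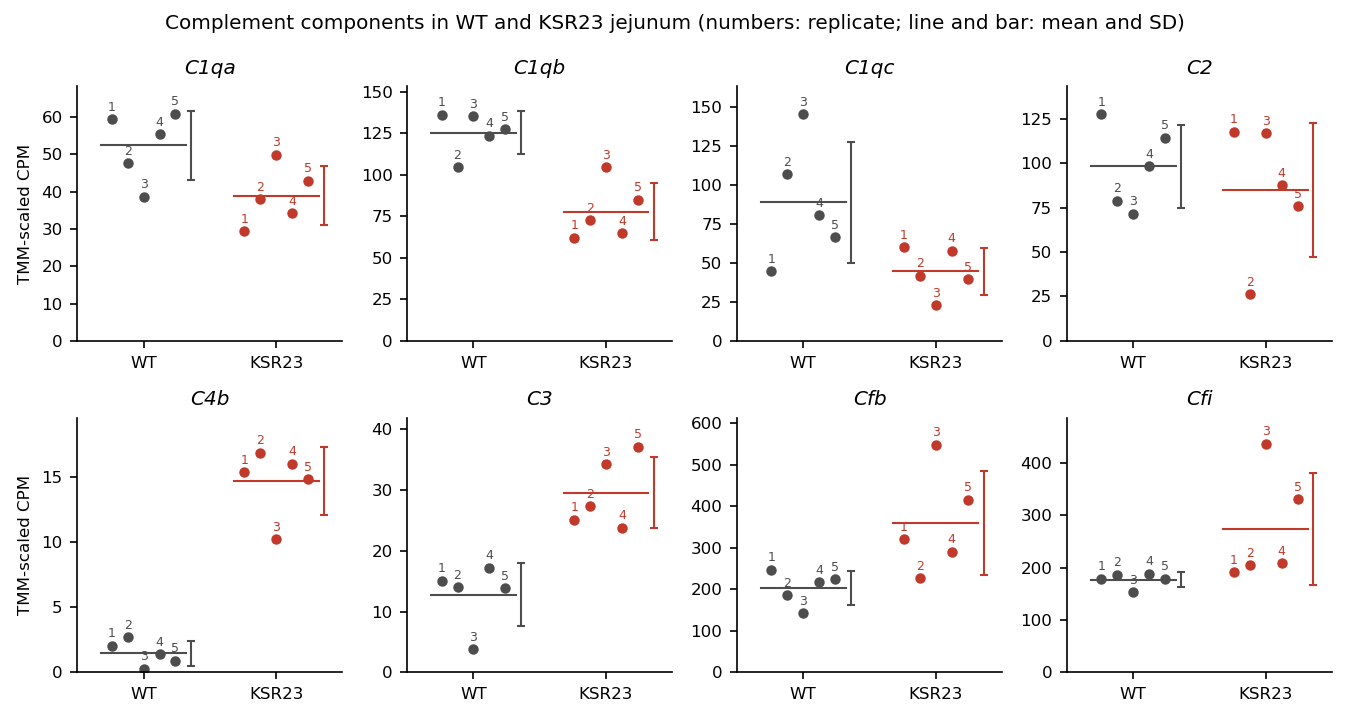
TMM-scaled CPM of 8 complement components in each library, 5 WT (grey) and 5 KSR23 (red), with the replicate number above each point and the mean and SD (n = 5) as a line and a bar. C4b and C3 lie higher in every KSR23 library than in any WT library, the 3 C1q chains tend lower, and Cfb and Cfi spread widely in KSR23 with replicate 3 highest.

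Per kilobase of exon, the order of the components in WT was C1qb, Cfi, Cfb, C1qc, C1qa, C2, C3, C4b and Cfd. C1qb stood at 115 ± 11.7 CPM per kb, Cfi at 85.2 ± 6.90, Cfb at 73.9 ± 14.7 and C1qc at 73.7 ± 32.2 (SD, n = 5 each). The last 3 did not differ beyond their spread. C1qa (50.3 ± 8.90) and C2 (35.3 ± 8.46) followed. C3, the central component on which all pathways converge, was far below them at 2.49 ± 1.01 CPM per kb, and C4b was at 0.273 ± 0.174. In KSR23 the order became Cfi (132 ± 51.3), Cfb (131 ± 45.5), C1qb (71.6 ± 16.0), C1qa (37.4 ± 7.59), C1qc (36.9 ± 12.6), C2 (30.5 ± 13.5), C3 (5.75 ± 1.14) and C4b (2.72 ± 0.483). Cfi and Cfb did not differ beyond their spread there, and neither did C1qa, C1qc and C2. These levels divide by the exon length of the mm10 annotation and not by a length measured in the libraries.

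C4b encodes the C4 that the classical and lectin pathways cleave. It had the largest difference of the components. The WT libraries held 66, 76, 8, 49 and 24 counts (replicates 1 to 5), or 2.04, 2.69, 0.294, 1.41 and 0.901 CPM. The KSR23 libraries held 1081, 523, 257, 904 and 525 counts, or 15.4, 16.9, 10.2, 16.0 and 14.8 CPM. The lowest KSR23 library, replicate 3, was well above the highest WT library, replicate 2. This was a log2 difference of 3.32 (SE 0.46, 95% confidence interval 2.42 to 4.21, 9.95-fold), with an adjusted p of 1.36e-09 by LRT and 0.000775 by QL. In replicates 1 to 3 it was 3.11 (SE 0.74, adjusted p = 0.00622, 0.135 by QL). C4b lies on the minus strand at chr17:34728380-34743882 of build mm10, and 22.7% of its 75-base stretches also occur in its neighbour C4a. No library had more than 14 counts of C4a, and reads that mapped to more than 1 place entered no gene.

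C2 and Cfb, the serine proteases of the classical and alternative convertases, are adjacent genes on chromosome 17, at 34862604 to 34898265 and 34856374 to 34862518 of mm10, both on the minus strand. They did not change alike. C2 stood at 128, 78.9, 71.6, 98.2 and 114 CPM in WT and at 118, 26.3, 117, 87.5 and 75.7 CPM in KSR23. The groups overlapped and KSR23 replicate 2 was lowest of all. In log2 terms C2 differed by -0.21 (SE 0.38, 95% confidence interval -0.95 to 0.53, adjusted p = 0.767 by LRT). Cfb stood at 247, 187, 143, 217 and 224 CPM in WT and at 321, 226, 548, 290 and 416 CPM in KSR23. KSR23 replicate 2 was below WT replicate 1, and the other KSR23 libraries were above each WT library. Cfb had a log2 difference of 0.82 (SE 0.30, 95% confidence interval 0.25 to 1.40, adjusted p = 0.0343), but 0.0503 by QL and, in replicates 1 to 3, 0.441 by LRT. The call of Cfb was lost without WT replicate 2, 3, 4 or 5 (adjusted p = 0.0580, 0.103, 0.0556 and 0.0728) and without KSR23 replicate 3 or 5 (0.0862 and 0.103). Both genes overlap Gm20547, an annotated read-through of the pair that is not among the genes counted. It shares 69.9% of the 75-base stretches of Cfb and 37.0% of those of C2, and neither gene shares any with another locus.

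C3 lies on the minus strand at chr17:57203970-57228136 of mm10. WT libraries held 15.1, 14.0, 3.85, 17.2 and 13.8 CPM, and KSR23 libraries 25.1, 27.3, 34.3, 23.8 and 37.1 CPM. The groups did not overlap, and WT replicate 3 was far below its group. Expressed as log2, the difference was 1.20 (SE 0.38, 95% confidence interval 0.46 to 1.95, 2.31-fold, adjusted p = 0.0136 by LRT, 0.0338 by QL). In replicates 1 to 3 it was 1.43 (SE 0.63, adjusted p = 0.279). Without KSR23 replicate 5 the adjusted p was 0.0508, and without WT replicate 3 the log2 fold change was 0.97 (adjusted p = 0.0116).

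Promoter sequence is shown for 2 of the components whose RNA differed, C3, which was higher, and C1qb, which was lower. The bases are the 250 before the RefSeq start on the minus strand (build GRCm38.p6), given 5′ to 3′. Of the 9 components, C1qb, C1qc, Cfd and C3 had a promoter entry in the RefSeq table used. Capitals mark matches to 6 letter patterns searched on both strands.
C3, chr17:57228137-57228386: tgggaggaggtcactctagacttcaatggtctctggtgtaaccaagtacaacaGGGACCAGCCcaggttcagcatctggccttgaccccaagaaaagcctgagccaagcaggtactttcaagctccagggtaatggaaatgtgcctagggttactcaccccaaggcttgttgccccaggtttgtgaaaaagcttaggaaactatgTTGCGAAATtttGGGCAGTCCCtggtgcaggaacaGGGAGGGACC
C1qb, chr4:136886201-136886450: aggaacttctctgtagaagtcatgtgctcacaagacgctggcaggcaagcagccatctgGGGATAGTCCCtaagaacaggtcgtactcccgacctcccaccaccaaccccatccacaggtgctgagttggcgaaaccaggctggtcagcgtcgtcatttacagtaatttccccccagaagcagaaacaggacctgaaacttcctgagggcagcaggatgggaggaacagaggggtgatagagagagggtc
In C3 the capitals mark 1 C/EBP pattern (TTNNGNAAT) at positions -45 to -37 from the start and 3 NF-kB patterns (GGGA, any 4 bases, CC), at -197 to -188, -33 to -24 (reverse strand) and -10 to -1. In C1qb they mark 1 NF-kB pattern on each strand, overlapping each other, at -191 to -182 and -190 to -181. The C/EBP pattern occurs in 10.2% of 32526 promoters of the same length and the NF-kB pattern in 17.7%. The other patterns, STAT (TTCNNNGAA, 7.04% of promoters), the interferon-stimulated response element (GAAA, any 2 bases, GAAA, 2.98%), PU.1 (GAGGAAGT, 2.45%) and the TATA box (TATAAA, 12.3%), had no match in either window. The C1qc window had a PU.1 match and an NF-kB match, and Cfd had none of the 6. The patterns were chosen after these promoters had been read, so their presence is a description only.

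Cfi encodes factor I, the protease that inactivates C3b and C4b, at chr3:129835884-129875332 of mm10 on the plus strand. WT libraries were tightly grouped at 179, 187, 153, 189 and 179 CPM. KSR23 libraries stood at 191, 204, 436, 209 and 330 CPM. Replicates 1, 2 and 4 of KSR23 lay just above the highest WT library, and replicates 3 and 5 well above it. Factor I RNA thus had a log2 difference of 0.63 (SE 0.29, 95% confidence interval 0.06 to 1.20), which did not pass (adjusted p = 0.118 by LRT, 0.112 by QL). Without KSR23 replicate 1 it was 0.78 (adjusted p = 0.0346).

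Cfd encodes factor D, which cleaves factor B. It had 1 count in WT replicate 2, 2 counts in KSR23 replicate 5 and 0 in the other 8 libraries, so it was not tested. A floor of 3 counts corresponds to 0.0427 to 0.119 CPM per library. The adipocyte genes Adipoq, Lep and Retn were at 0 in every library, while Cidec and Fabp4, also made by enterocytes or endothelium, were present and lower in KSR23. Car3 fell from 5.89 to 1.56 CPM. Pparg, at 10.8 CPM in WT and 13.5 in KSR23 (log2 fold change 0.32), and Plin1, with at most 5 counts in any library (1.55), were not called. Thus 3 of the 5 adipocyte genes tested were called (60%, beside 18.5% of all genes), and none of the 3 in replicates 1 to 3.

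The 3 C1q genes lie next to each other on chromosome 4 of mm10, all on the minus strand, C1qb at 136880129 to 136886187, C1qc at 136889804 to 136893065 and C1qa at 136895917 to 136898803. None shares a 75-base stretch with another gene. C1qa stood at 59.3, 47.6, 38.6, 55.4 and 60.9 CPM in WT and at 29.5, 38.0, 49.9, 34.3 and 42.9 CPM in KSR23. The groups overlapped, and the log2 fold change was -0.43 (SE 0.27, 95% confidence interval -0.96 to 0.11, adjusted p = 0.295 by LRT).

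C1qb stood at 136, 105, 135, 124 and 127 CPM in WT and at 62.2, 72.8, 104.6, 64.7 and 85.1 CPM in KSR23. The groups did not overlap, but the gap was narrow, 104.7 CPM in WT replicate 2 against 104.6 in KSR23 replicate 3. This came to a log2 difference of -0.69 (SE 0.25, 95% confidence interval -1.18 to -0.19, adjusted p = 0.0390 by LRT, 0.0339 by QL). In replicates 1 to 3 it was -0.62 (adjusted p = 0.675). Leaving out any 1 library other than KSR23 replicate 3 ended the call, with adjusted p from 0.0545 (WT replicate 2) to 0.145 (KSR23 replicate 4).

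C1qc spread most. It stood at 44.8, 107, 145, 80.3 and 66.4 CPM in WT and at 60.1, 41.8, 22.8, 57.9 and 39.6 CPM in KSR23. WT replicate 1 lay inside the KSR23 range, and the other 4 WT libraries were above it. On the log2 scale the difference was -1.0 (SE 0.37, 95% confidence interval -1.73 to -0.27, adjusted p = 0.0450 by LRT, 0.0696 by QL). In replicates 1 to 3 it was -1.22 (adjusted p = 0.389). The call was kept without WT replicate 1 or KSR23 replicate 1 and ended without any other library, with adjusted p up to 0.173 (WT replicate 3).

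The chains of C1q are needed in equal number, and their counts can be set against each other within a library, where scaling cancels. Ratios were taken with 0.5 added to each count, and 8 ratios of components were tested by exact permutation over 252 arrangements of the 10 libraries, two-sided, with adjustment over the 8. The smallest p this allows is 0.00794. C1qa to C1qb was 0.436, 0.455, 0.285, 0.448 and 0.478 in WT and 0.474, 0.522, 0.477, 0.529 and 0.505 in KSR23, 1.21-fold higher in KSR23 (exact permutation p = 0.0238, adjusted 0.0476). WT replicate 3 was low and WT replicate 5 lay within the KSR23 range. The difference no longer passed without WT replicate 2 or 3 (adjusted p = 0.0635 and 0.0762) or without any 1 KSR23 library (0.0762 to 0.159). C1qb to C1qc was 3.04, 0.980, 0.934, 1.54 and 1.92 in WT and 1.03, 1.74, 4.58, 1.12 and 2.15 in KSR23. It varied more within a group than between them (exact permutation p = 0.619, adjusted 0.619), as did C1qa to C1qc (p = 0.373, adjusted 0.426).

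Deviations of log2 CPM from the group means over the 10 libraries gave r = 0.66 between C1qa and C1qb, -0.92 between C1qa and C1qc, and -0.67 between C1qb and C1qc. The points share their libraries and scaling factors, and replicates 4 and 5 lie between the rest, so these values are a description. Thus C1qc was high in the libraries of a group in which C1qa was low.

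Markers of macrophages moved in both directions. Of 15 tested, 7 were called (46.7%, beside 18.5% of all genes), 5 lower and 2 higher, and 0 in replicates 1 to 3 by either test. Those lower in KSR23 included Cd68, Aif1, Ms4a7 and Timd4, with log2 changes of -1.06, -1.51, -1.41 and -0.90, and Cd14 (1.81) and Cd163 (1.93) were higher. The summed level of the 15 ran from 903 to 1083 CPM in WT and from 681 to 931 CPM in KSR23, with no marker at 0 in every library. Csf1r, the receptor that macrophages depend on, differed by -0.26 on the log2 scale (SE 0.22, adjusted p = 0.458). The ratio of C1qa to Csf1r did not differ beyond the spread (exact permutation p = 0.349, adjusted 0.426). C1qb and C1qc, the chains called lower, were not set against Csf1r. The summed level of 6 dendritic cell genes ran from 4.09 to 7.49 CPM in WT and from 7.54 to 11.4 CPM in KSR23, none of them at 0 in every library. Itgae (1.22, adjusted p = 0.00415) and Ccr7 (1.42, adjusted p = 0.0390 by LRT, 0.0765 by QL) were called, both higher (33.3%, beside 18.5% of all genes), and neither in replicates 1 to 3. The others of the list, Flt3 (-0.07), Zbtb46 (-0.18), Xcr1 (0.71) and Clec9a (0.14), were not called (adjusted p = 0.967, 0.944, 0.284 and 0.859 by LRT). The part of macrophage and dendritic cell numbers in the C1q levels was not tested.

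Among the ratios of the other components, Cfb to C2 was 1.94, 2.37, 1.99, 2.21 and 1.956 in WT and 2.73, 8.60, 4.68, 3.32 and 5.49 in KSR23. Each KSR23 library was above each WT library, by 2.19-fold on average (exact permutation p = 0.00794, the smallest possible, adjusted 0.0317). C4b to C2 was 0.0161, 0.0343, 0.00436, 0.0145 and 0.00804 in WT and 0.131, 0.642, 0.0875, 0.183 and 0.196 in KSR23, 15.6-fold higher without overlap (exact permutation p = 0.00794, adjusted 0.0317). Without WT replicate 2 the adjusted p of both ratios was 0.0635. Cfi to C3 was 1.73-fold lower in KSR23 (exact permutation p = 0.0238, adjusted 0.0476), and WT replicate 3 had the highest value, 39.5, against 11.0 to 13.3 in the other WT libraries. That difference no longer passed without WT replicate 2, 3 or 5 (adjusted p = 0.0635, 0.0762 and 0.0635) or KSR23 replicate 1, 2, 4 or 5 (0.143, 0.143, 0.159 and 0.143). C3 to Cfb was 1.48-fold higher (exact permutation p = 0.0635, adjusted 0.102). Replicates 1 to 3 alone allow no p under 0.1, and there the log2 differences of Cfb to C2 and C4b to C2 were 1.20 and 3.86.

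**Figure D2:**
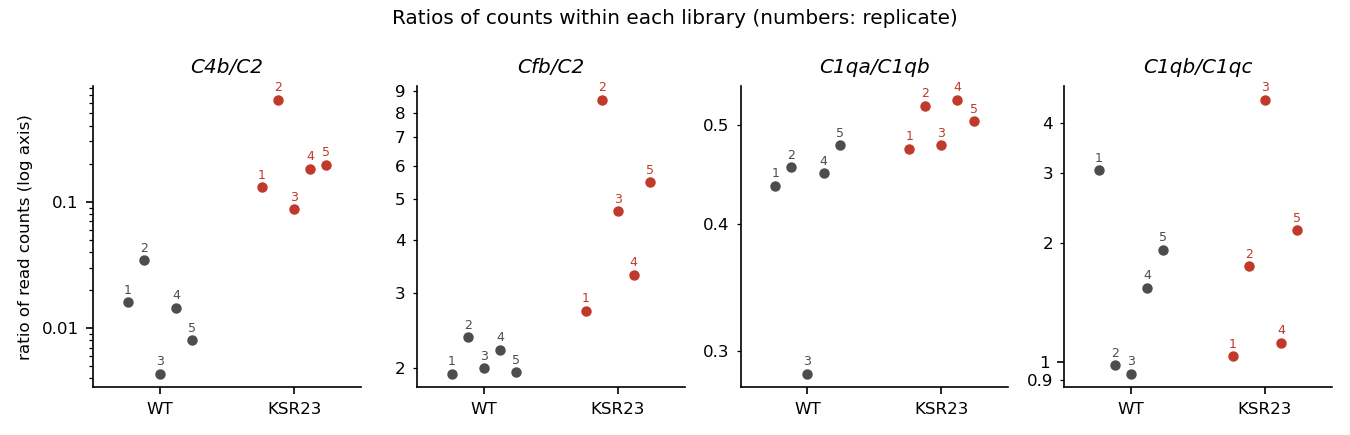
Ratio of the counts of 2 components within each library (log axes, replicate number above each point), WT in grey and KSR23 in red. The ratios C4b to C2 and Cfb to C2 are higher in every KSR23 library than in any WT library, whereas C1qb to C1qc ranges from 0.934 to 3.04 in WT and from 1.03 to 4.58 in KSR23.

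The rest of the pathway was followed in 50 further genes, of which 49 were in the files and 44 were tested. The LRT called 16 of the 44 (36.4%, beside 18.5% of all genes), 10 higher and 6 lower, and the QL test called 14. The groups did not overlap at 8 (18.2%, beside 14.4% of all genes). The median log2 fold change of the 44 was 0.18. With replicates 1 to 3 alone, the LRT called 4, among them C7, C8b and Cpn2, and the QL test 2, among them C8b. The other calls named here were not made by LRT in replicates 1 to 3, with adjusted p of 0.208 for Fcna, 0.648 for Cfp, 0.0584 for C8a, 0.281 for C9, 0.0793 for Cfhr2, 0.136 for Cd55, 0.285 for Cr1l, 0.507 for Cd59a, 0.0696 for Cd59b, 0.602 for Cpn1 and 0.507 for Itgam.

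Of 11 other initiation genes tested, 2 were called (18.2%, near the 18.5% of all genes). Fcna, which encodes ficolin A, a lectin-pathway recognition protein, rose from 3.78 ± 1.17 to 8.06 ± 2.12 CPM (SD, n = 5 each; log2 fold change 1.09, SE 0.33, adjusted p = 0.0103 by LRT). With a replicate block the adjusted p of Fcna was 0.0652 and with a covariate of Y-linked expression 0.179. Cfp, which encodes properdin, the stabiliser of the alternative convertase, fell from 16.1 ± 2.0 to 9.80 ± 0.863 CPM without overlap (log2 fold change -0.72, SE 0.26, adjusted p = 0.0342), a call that ended without any 1 library other than KSR23 replicate 3. C1s1, the protease that cleaves C4 and C2, stood at 24.7 ± 5.06 CPM in WT and 29.7 ± 3.02 in KSR23 (log2 fold change 0.27, adjusted p = 0.553). The mannose-binding lectin gene Mbl2 had a log2 fold change of 0.76 (adjusted p = 0.226).

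All 7 terminal pathway genes were tested and 4 were called (57.1%, beside 18.5% of all genes). C8b, which encodes the beta chain of C8 in the membrane attack complex, had 979, 2566, 1150, 2543 and 863 counts in the 5 WT libraries but 39, 79, 91, 119 and 116 in those of KSR23. Its level fell by 4.48 on the log2 scale (SE 0.48, adjusted p = 7.38e-14 by LRT, 0.000196 by QL), with no overlap, and in replicates 1 to 3 the adjusted p was 2.37e-05. C8a, its partner chain, had 15, 7, 0, 5 and 2 counts in the WT libraries and 0 in each KSR23 library, at least 2.35-fold lower against a floor of 3 counts per library (adjusted p = 0.000449). Without WT replicate 1 that bound was 1.47, and with a covariate of Y-linked expression the adjusted p was 0.241. C8g, the third chain, was not called, at 32.8 ± 6.44 CPM in WT and 59.8 ± 33.7 in KSR23 (log2 fold change 0.86, adjusted p = 0.0960). With 1 library left out, the adjusted p of C8g by LRT ran from 0.0292 to 0.271. C9, the pore-forming component, was higher at 1.5 ± 0.826 against 0.476 ± 0.166 CPM (log2 fold change 1.64, SE 0.48, adjusted p = 0.00709). Among the alternative settings the call of C9 was kept in 17 and lost in 3, which include both tests of replicates 1 to 3. C7 had 0, 0, 0, 2 and 0 counts in the WT libraries and 8, 8, 9, 7 and 4 in KSR23, at least 1.90-fold higher against that floor (adjusted p = 0.00242). For C6 the log2 fold change was -0.39 (adjusted p = 0.460).

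Of 17 regulators tested, 9 were called (52.9%, beside 18.5% of all genes). Cfhr2 had 516, 306, 233, 403 and 310 counts in the WT libraries and 484, 3506, 2356, 5084 and 6335 in KSR23, so by count replicate 1 of KSR23 stayed in the WT range. For Cfhr2 the log2 difference was 3.04 (SE 0.56, adjusted p = 1.47e-05). Of its 75-base stretches, 21.3% occur in another gene.

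Cd55, the decay-accelerating factor that dissociates convertases, rose from 15.8 ± 1.99 to 42.3 ± 3.86 CPM (SD, n = 5 each; log2 fold change 1.43, SE 0.26, adjusted p = 1.62e-06 by LRT), with no overlap. Cr1l, which encodes Crry, the rodent regulator of C3 convertases, rose from 107 ± 16.3 to 237 ± 94.7 CPM (log2 fold change 1.15, SE 0.31, adjusted p = 0.00295), also with no overlap. Cd59a and Cd59b, which block assembly of the membrane attack complex, fell by 1.10 (SE 0.34, adjusted p = 0.0117) and 2.18 (SE 0.39, adjusted p = 1.87e-06) on the log2 scale. The call of Cd59a ended without WT replicate 5 (adjusted p = 0.0579). Serping1, the C1 inhibitor, was not called, at 100.0 ± 17.7 CPM in WT and 107 ± 17.4 in KSR23 (adjusted p = 0.847). Cd46 (log2 fold change 0.51, adjusted p = 0.347) and Cd55b (1.20, adjusted p = 0.261) were not called either.

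Carboxypeptidase N, which trims the anaphylatoxins C3a and C5a, has a catalytic chain encoded by Cpn1 and a carrier chain encoded by Cpn2. Cpn2 had 0, 7, 0, 1 and 2 counts in the WT libraries and 265, 208, 288, 264 and 323 in KSR23 (log2 fold change 6.64, SE 0.68, adjusted p = 4.01e-19 by LRT, and 3.91e-06 in replicates 1 to 3). With 1 library left out its log2 difference ran from 6.31 (without WT replicate 1) to 8.02 (without WT replicate 2, which held 7 of the WT counts). Cpn1 went the other way, from 16.8 ± 3.39 to 9.09 ± 3.41 CPM (SD, n = 5 each; log2 fold change -0.89, SE 0.33, adjusted p = 0.0416, 0.0509 by QL). The call of Cpn1 was kept without KSR23 replicate 3 or 5 and ended without any 1 of the other libraries (adjusted p up to 0.156, KSR23 replicate 4).

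**Figure D3:**
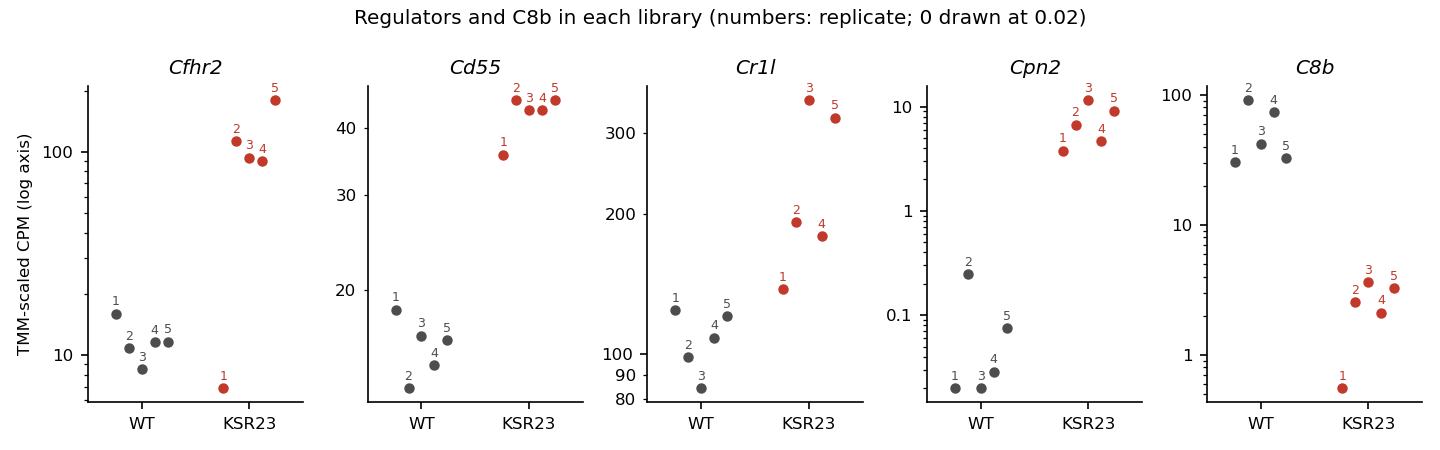
TMM-scaled CPM of 4 regulators and of C8b in each library (log axes, replicate number above each point, 0 drawn at 0.02), WT in grey and KSR23 in red. Cd55, Cr1l and Cpn2 are higher and C8b is lower in every KSR23 library than in any WT library, whereas KSR23 replicate 1 lies at 6.88 CPM for Cfhr2, below the WT libraries.

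Of 9 receptors tested, 1 was called (11.1%, beside 18.5% of all genes). Itgam, which encodes the alpha chain of complement receptor 3 on myeloid cells, rose from 5.69 ± 2.06 to 11.5 ± 3.57 CPM (SD, n = 5 each; log2 fold change 1.01, SE 0.36, adjusted p = 0.0341 by LRT, 0.0521 by QL). The call ended without WT replicate 3, 4 or 5 or KSR23 replicate 3 or 5 (adjusted p = 0.0921, 0.0638, 0.0953, 0.0735 and 0.0918), and 65.2% of its 75-base stretches lie in the overlapping annotated gene Gm49368. Itgb2, which encodes the beta chain of complement receptor 3, was not called, at 11.1 CPM in WT and 12.2 in KSR23 (log2 fold change 0.13, adjusted p = 0.816 by LRT). Itgax (-0.09, adjusted p = 0.885), the C3a receptor gene C3ar1 (-0.40, adjusted p = 0.387) and the C5a receptor gene C5ar1 (-0.04, adjusted p = 0.953) were not called either.

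**Figure D4:**
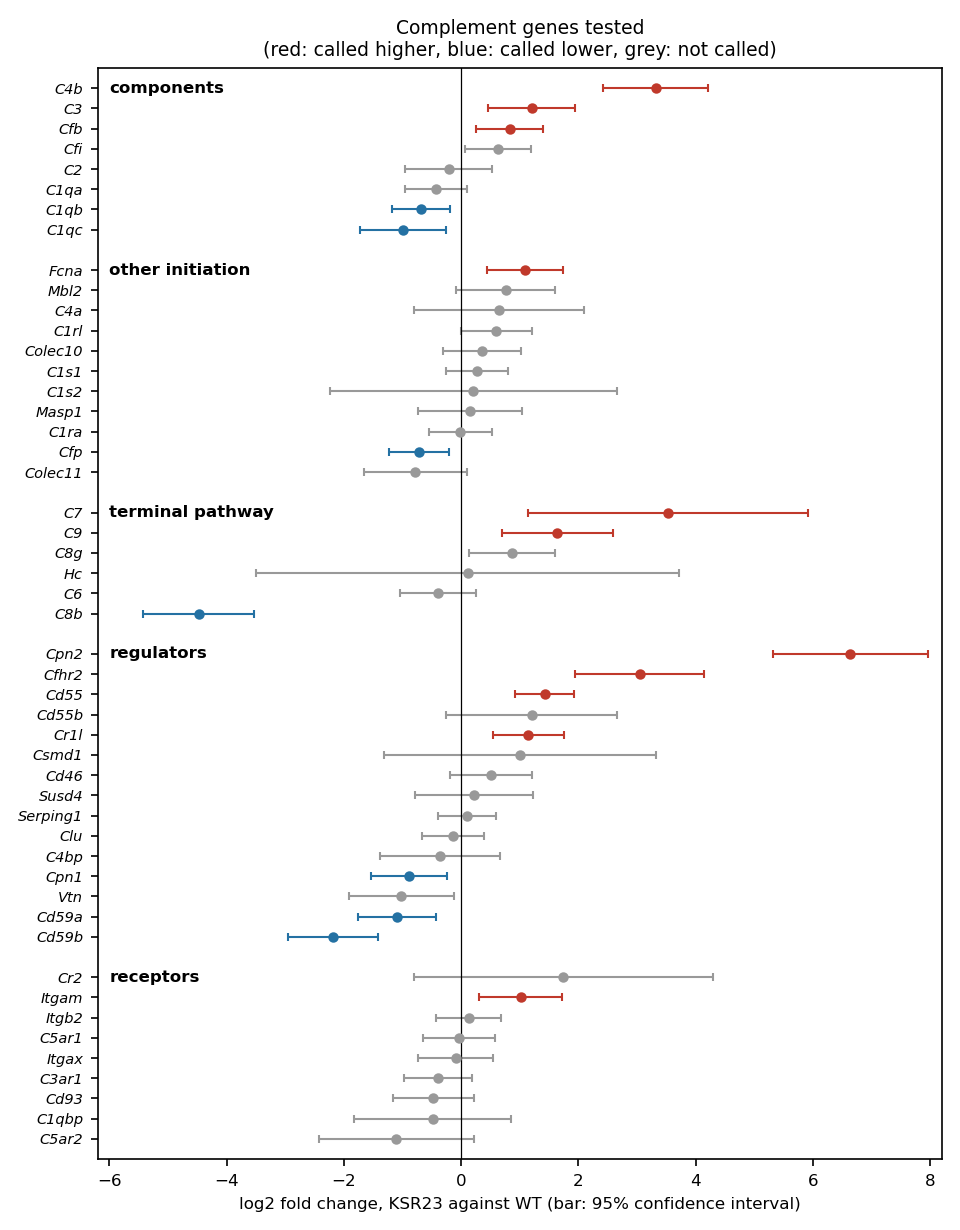
Log2 fold change of KSR23 against WT for complement genes tested and reported here, grouped by role, with 95% confidence intervals (n = 5 libraries per group). Red and blue mark genes called higher and lower by LRT, and C8a, whose KSR23 libraries are all at 0, is not drawn.

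A list of 12 genes held cytokines and transcription factors known to act on complement genes, with the NF-kB regulators Nfkbia and Nfkbiz. Of the 12, 6 were called (50%, beside 18.5% of all genes in either direction and 9.73% higher), each higher in KSR23. The QL test called 5. The LRT called 2 of them (Il22 and Ifng) in replicates 1 to 3 alone, where the adjusted p was 0.0646 for Tnf, 0.0539 for Nfkbiz and 0.420 for Nfkbia. Il22 counts were 0 or 1 in WT libraries and 137 to 329 in KSR23, at least 65.9-fold higher against a floor of 3 counts per library. Tnf rose from 0.319 ± 0.191 to 1.44 ± 0.253 CPM (SD, n = 5 each; log2 fold change 2.18, SE 0.50, adjusted p = 0.000276 by LRT). Nfkbiz, an NF-kB cofactor, was higher by 2.20 on the log2 scale (SE 0.38, adjusted p = 8.29e-07). Ifng (2.86, adjusted p = 0.00167) and Nfkbia (2.12, adjusted p = 0.0194 by LRT, 0.0683 by QL) were higher too, and Stat3 was not called (1.07, adjusted p = 0.0887). With 1 library left out, the adjusted p of Stat3 by LRT ran from 0.00876 to 0.217, so its call depended on the libraries kept. The call of Nfkbia ended without WT replicate 4 or 5 or KSR23 replicate 2 (adjusted p = 0.0545, 0.0709 and 0.0894).

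Because the liver makes many of these proteins, hepatocyte genes were read in the same libraries. Their sum ran from 273 to 645 CPM in WT and from 19.1 to 105 CPM in KSR23. None of the 8 was at 0 in every library, and the LRT called 6 of them (75%, beside 18.5% of all genes), 3 higher and 3 lower. Ttr, which enteroendocrine cells also make, was 97.8% to 98.7% of the sum in WT and 34.9% to 65.5% in KSR23, and it fell (log2 fold change -3.79, adjusted p = 1.27e-11 by LRT). Alb was called lower by LRT (-2.16, adjusted p = 0.0439) and not by QL (0.0938). Serpina1c was lower by both tests without overlap (-2.04, adjusted p = 0.000395 by LRT, 0.0103 by QL). The acute-phase genes Fga (5.57, adjusted p = 3.86e-12), Fgb (3.47, adjusted p = 0.00702) and Hp (2.31, adjusted p = 0.00117) rose by LRT. In replicates 1 to 3 the LRT called Ttr and Fga, and not Alb, Serpina1c, Fgb or Hp (adjusted p = 0.423, 0.177, 0.137 and 0.282). Genes of pancreatic acinar cells were lower in the same libraries. Of 8 listed, 6 were tested and the LRT called 6 lower (100%, beside 18.5% of all genes in either direction and 8.76% lower). The QL test called 4, and the LRT called 4 in replicates 1 to 3, beside 15.4% and 3.36% of all genes. The median log2 fold change was -3.77. The sum of the 8 ran from 107 to 236 CPM in WT and from 7.62 to 19.7 CPM in KSR23, and Amy2a5 was at 0 in every library. Most of the WT sum came from Cela1 (mean 70.6 CPM in WT and 8.85 in KSR23) and Ctrb1 (82.2 and 0.269 CPM). Pnlip was below the filter, with at most 3 counts in any library. The part of either list in the complement levels, C8b included, was not tested.

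The genes whose log2 CPM followed that of C3 most closely across the 10 libraries, of 12889 compared, were Hdac6, Dync1li2, Dnajc14, Recql5 and Top3a (Pearson r from 0.985 to 0.972). Those closest to C1qa were Gnpda2, Sepw1, Agtr1a, Aldh1b1 and Ifitm2 (r from 0.979 to 0.964). The libraries are shared by all genes compared and include both groups, so the values describe likeness of pattern alone. Of these 10 genes, Top3a was the one called (log2 fold change 0.94, adjusted p = 0.0321 by LRT). No such list was made for Cfd, whose counts did not exceed 2.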

How the data were processed

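Jejunum of P5 mice was profiled from oligo-dT primed, PCR-amplified cDNA, read as single-end 75-base reads with no molecular identifiers, so floors reflect counting error alone. The deposited values were counts. The authors mapped reads to mm10 with TopHat2 2.1.0 and counted reads per gene with HTSeq 0.6.1p1, per the submitters' processing notes, and deposited the counts unnormalised. Reads with more than 1 alignment (20.3% to 26.5% of reads per library) entered no gene, and the strand setting is not given in the sources used here. From the counts, genes whose count reached 5 in any library were kept (17632), one reading of the filter the study describes. TMM factors, the likelihood ratio test, which is the test the study used, and the quasi-likelihood test were computed in edgeR 4.0.16 (R 4.3.3) with Benjamini-Hochberg adjustment. Alternatives were DESeq2 1.42.0, RLE factors, library totals alone, other filters, each library left out, replicates 1 to 3 only, a replicate block and a covariate of Y-linked expression. Named genes were the 9 components, the other genes of fixed lists, and for C3 and C1qa the 5 genes most correlated over libraries. The members and lists were chosen with earlier results of these data known. Positions are 1-based mm10 coordinates of the GENCODE M21 annotation, and promoter bases are from RefSeq (GRCm38.p6). The code was tested on simulated counts. Some genes of these lists enter the counts of genes called and are otherwise not reported here.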

Additional observations from a re-analysis of the deposited data

Results flagged for a closer look

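Among 62 sets of 5 values examined (a named gene in WT or in KSR23, on log2 CPM), 6 had a highest or lowest library whose gap to its nearest neighbour was too large a share of the group's range, where chance gives about 1 in 20. C3 in WT replicate 3 stood at 3.85 CPM against 13.8 to 17.2 in the other WT libraries. Cfi in the same library stood at 153 CPM against 179 to 189. C4b in KSR23 replicate 3 stood at 10.2 CPM against 14.8 to 16.9. Cfhr2 in KSR23 replicate 1 stood at 6.88 CPM against 90.0 to 179. Cd55 in KSR23 replicate 1 stood at 35.6 CPM against 43.1 to 44.9. Cd59a in KSR23 replicate 2 stood at 17.2 CPM against 32.4 to 41.7.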

How the results depend on the processing

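The number of components called, 5 of 8, fell to 3 under the quasi-likelihood test and with library totals alone, to 2 with a covariate of Y-linked expression, to 1 and 0 in replicates 1 to 3 (likelihood ratio and quasi-likelihood test), and to 1 with a replicate block. It ranged from 1 to 5 with 1 library left out (4, 2, 2, 2 and 2 without WT replicates 1 to 5, and 5, 3, 3, 3 and 1 without KSR23 replicates 1 to 5). C4b was called in each of these except the quasi-likelihood test of replicates 1 to 3. Same-numbered libraries deviated together in 3 pairs (r from 0.28 to 0.41, replicates 2, 4 and 5) and oppositely in the other two (-0.69 and -0.62), so the block tests no known pairing. Under the replicate block C3 had an adjusted p of 0.0523, and with the Y-linked covariate 0.128. The other complement genes called numbered 16, but 4 and 2 in replicates 1 to 3, 10 with the Y-linked covariate and 12 to 17 with 1 library left out. Over all genes the calls numbered 579 and 140 in replicates 1 to 3 and 2370 to 3802 with 1 library left out. The log2 difference of Cfb to C2 was 1.20 in replicates 1 to 3, 1.13 with the replicate block and 0.91 to 1.32 with 1 library left out. C4b to C2 gave 3.86, 3.97 and 3.53 to 4.34, Cfi to C3 gave -1.04, -0.79 and -0.92 to -0.45, and C1qa to C1qb gave 0.35, 0.28 and 0.14 to 0.33. With 1 library left out, Cfi to C3 and C1qa to C1qb failed in 7 of 10 cases each, and Cfb to C2 and C4b to C2 failed without WT replicate 2. None of these 4 passed in replicates 1 to 3 or with the block, where 0.1 and 0.0625 are the smallest p possible. C1qa to Csf1r ranged from -0.31 to -0.11 and passed without WT replicate 3, and C1qb to C1qc ranged from -0.079 (without KSR23 replicate 3) to 0.50. Signs turned, without a call on either side, for C2 (-0.35 to 0.068 with 1 library left out, the latter without KSR23 replicate 2, and 0.10 with the Y-linked covariate), Serping1 (-0.0090 with library totals alone and -0.094 with that covariate) and Mbl2 (-0.12 with that covariate). The cause was not tested. Counts of 3 or fewer limit Cfd, C8a in most libraries, and C7, Il22, Cpn2 and Ifng in most WT libraries, among others.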
